A study of Mus musculus with 16 samples.

Results

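The genes that activate fatty acids and oxidise them were followed in HM1 tumours, which model ovarian cancer in the mouse, with and without supplementation of mannose, a simple sugar. The list holds 34 genes chosen by symbol for their role in the pathway, of 55290 symbols in the tables of sorted CD8 T cells and 53112 in those of whole tumours. All 34 were found in both sets of tables, each as a single entry. Sorted CD8 T cells, the killer T cells of the tumour, gave 3 libraries from mannose-supplemented tumours and 3 from controls. Whole tumour tissue gave 5 mannose and 5 control libraries. The title of the study names an antibody against PD-1, but the labels do not state whether it was given in any group, nor the dose, route or duration of mannose, the mouse strain, or the age of the animals. Values are TPM, a transcript level scaled for transcript length and to a common total in each library.

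Fatty acids enter a cell through transporters such as CD36, are carried in the cytosol by fatty acid-binding proteins, and are activated by coupling to coenzyme A. The carnitine shuttle moves long-chain acyl groups into mitochondria, where a repeated cycle of dehydrogenation, hydration, dehydrogenation and thiolytic cleavage shortens them and passes electrons to the respiratory chain. Peroxisomes run a parallel cycle for very long chains. In tumours, T cells draw on this pathway alongside glycolysis, and macrophages and tumour cells use it as well.

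Some properties of the libraries bear on every result. The value columns of the 3 CD8 control tables carry headers that name mannose, and the sample labels were followed. In the share of each T cell receptor beta V segment among 35 such segments, CD8 control 1 correlated with control 2 (Pearson r = 0.999) and CD8 mannose 1 with mannose 2 (r = 0.995), whereas the other pairs of CD8 libraries reached at most 0.763. Results in CD8 libraries are therefore also given with each like pair averaged, which leaves 2 libraries a group. The labels tie no library to an animal, so p-values describe the spread between these libraries, which may be technical. Read depth is not known from TPM, and 12345 to 14384 symbols reached 1 TPM in a library. Among the tested members, tumour control 1 held the lowest value of the 10 tumour libraries for 16 of 32.

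The CD8 label was checked against T cell markers. The summed level of 8 such markers was 2056 to 3815 TPM in CD8 mannose and 3915 to 4231 TPM in CD8 control libraries, against 5.39 to 80.3 TPM in whole tumours. Markers of other cells were present in the CD8 libraries and moved with the groups. The 12 macrophage and monocyte markers summed to 1173 to 1542 TPM in CD8 mannose and 4272 to 4565 TPM in CD8 control libraries, and all 12 fell. Neutrophil markers summed to 269 to 473 TPM with mannose and 1063 to 1281 TPM in controls, with 6 of the 7 tested lower. Carcinoma and epithelial markers summed to 1748 to 2673 TPM with mannose and 261 to 579 TPM in controls, with 5 of the 7 tested higher and Cdh1 lower. Fibroblast markers summed to 248 to 390 TPM and 46.9 to 139 TPM, with 6 of 8 higher, and endothelial markers to 109 to 219 TPM and 84.9 to 115 TPM, with 5 of 8 higher. All 8 T cell markers had negative log2 differences (median -0.64) and an unadjusted p under 0.05 by limma. For 7 of them every mannose library lay below every control, and 2 passed at an adjusted p under 0.05. Adipocyte markers summed to no more than 2.32 TPM in any CD8 library, with Plin1 and Lep at 0 in all 6. In bulk libraries, fewer cells of a type and less RNA per cell cannot be told apart. The part of these markers in the results below was not tested.

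The CD8 comparison asks how the sorted CD8 libraries, with the other cells they hold, differed with mannose. Wherever results are given for CD8 cells, these libraries as a whole are meant. In these libraries 6 genes of the mitochondrial cycle rose by 0.32 to 0.69 on the log2 scale and the acyl-CoA synthetase gene Acsl3 by 1.16. The fatty acid carrier gene Fabp5 fell 5.21-fold. By limma, 8 of the 31 tested members rose and 3 fell at an adjusted p under 0.05, or 35.5%. Over all 14280 genes tested, 34.9% passed, with 23.2% higher and 11.7% lower, so the share of members is that of the background. An unadjusted p under 0.05 was found for 15 members and for 46.3% of all genes. The risen members were Acadvl, Acadl, Hadh, Acaa2, Etfa, Decr1, Acsl3 and Pnpla2, and the fallen ones Slc25a20, Ehhadh and Fabp5. The median log2 difference was 0.17 over the members and 0.09 over all genes, and 20 of 31 members were positive, as were 58.1% of all genes. The groups did not overlap for 14 members with mannose above and 7 with mannose below, against 33.3% and 18.1% of all genes, or 51.4% in both directions. Quantile normalization gave 7 members higher and 6 lower, and median-ratio scaling 7 higher and 5 lower. When like pairs were averaged 1 member, Fabp5, still passed, and 11.4% of all genes did. The sum over all 34 members was 1468 to 1479 TPM in CD8 mannose and 1818 to 1852 TPM in CD8 control libraries. Without Fabp5 it was 1341 to 1373 TPM with mannose and 1215 to 1263 TPM in controls, so the direction of the sum turned on that gene.

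**Figure D1:**
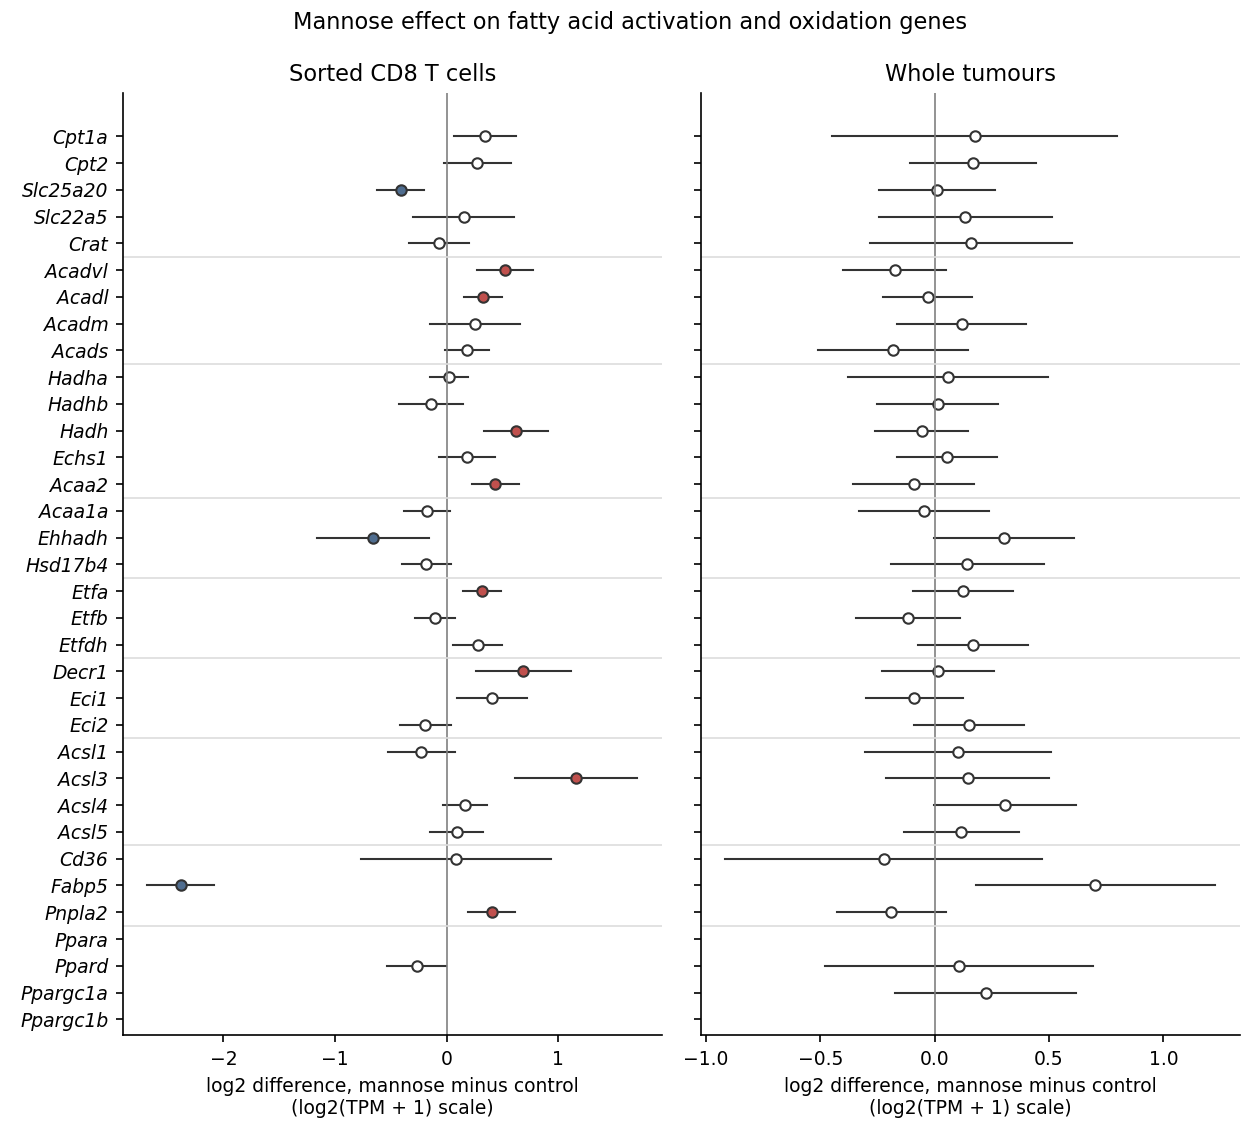
Difference of mannose from control for each tested gene, with its 95% interval, on the log2(TPM + 1) scale, in sorted CD8 T cells (left) and whole tumours (right); the axes differ in range. Red points passed upwards and blue points downwards at an adjusted p under 0.05, white points did not pass, grey lines part the functional groups, and genes below the filter have no point. Fabp5 lies at -2.38 in the CD8 libraries, far left of the other 30 genes, and at 0.70 in tumours.

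Among genes of uptake, carriage and lipolysis, Fabp5 encodes a cytosolic protein that binds long-chain fatty acids and delivers them within the cell. Its level in the CD8 libraries was 101, 102 and 138 TPM with mannose and 589, 577 and 603 TPM in controls. The groups lay far apart, and each was tight compared with the gap. The log2 difference was -2.38 (SE 0.13, adjusted p = 2.03e-04), and it passed under each of the 14 alternative settings, with a range of -2.53 to -2.23. Averaging like pairs gave -2.32 (adjusted p = 0.0102). Of all genes tested, 42 (0.294%) fell by at least as much. Fabp5 was thus among the largest falls in these libraries, beside the fall of all 12 macrophage markers, whose part in it was not tested. Among the 6 CD8 libraries Fabp5 had the same order, from lowest to highest, as the summed T cell markers. That order can be met only where every mannose library lies below every control, as in 2582 of all genes tested. It was shared by 372 of those genes, or 2.61% of all genes tested.

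Pnpla2 encodes adipose triglyceride lipase, which releases fatty acids from lipid droplets. It was at 63.4, 64.2 and 62.4 TPM with mannose and 49.3, 43.1 and 50.9 TPM in controls. Every mannose library lay above every control, by a log2 difference of 0.40 (SE 0.09, adjusted p = 0.0142). The call was lost without control 2 (adjusted p = 0.0525), without mannose 2 (adjusted p = 0.0607) and with like pairs averaged (adjusted p = 0.112). Cd36, a scavenger receptor that takes up fatty acids, was at 14.6, 16.8 and 5.83 TPM with mannose and 11.3, 12.2 and 8.77 TPM in controls. The mannose group spanned the controls, with mannose 3 the lowest of the 6 libraries (log2 difference 0.09, adjusted p = 0.872), and the sign turned under 5 alternative settings.

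**Figure D2:**
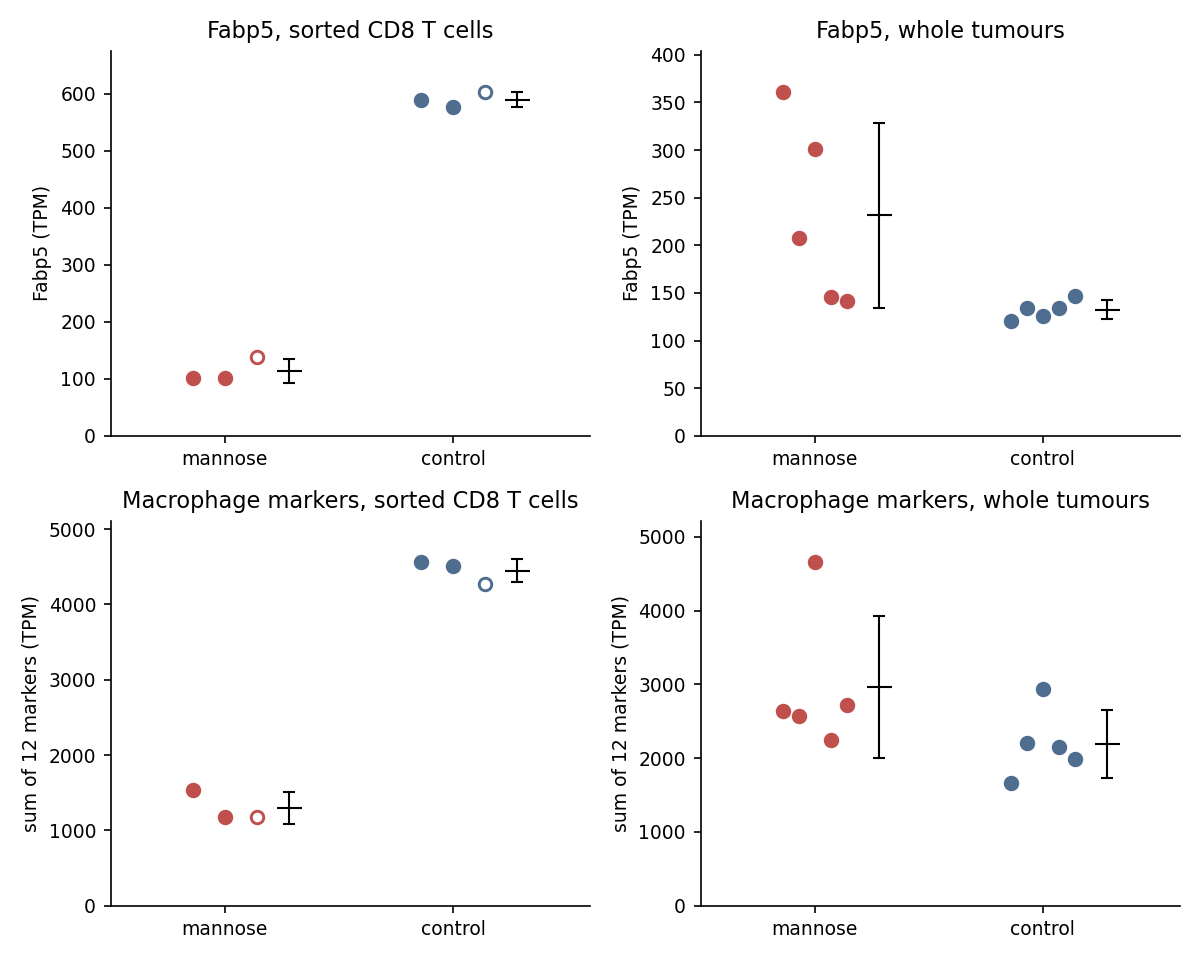
Level of Fabp5 (top) and the sum of 12 macrophage and monocyte markers (bottom), in TPM on linear axes from 0, in sorted CD8 T cells (left) and whole tumours (right), with mannose left of control. Points are libraries, open points the CD8 libraries outside a like pair, and bars the mean ± SD. Among the CD8 libraries, which also hold other cells, both are lower with mannose, while in tumours Fabp5 is above every control in 3 of 5 mannose libraries.

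Long-chain acyl-CoA synthetases couple fatty acids to coenzyme A. Acsl3, the isoform of the endoplasmic reticulum and lipid droplets, had the largest rise among the members. It was at 28.3, 24.1 and 17.7 TPM with mannose and 12.3, 10.1 and 7.26 TPM in controls. The groups did not overlap, but mannose 3 was nearer to the controls than the other mannose libraries. The log2 difference was 1.16 (SE 0.23, adjusted p = 0.0095), and it kept its call in each fit that left out 1 library. Averaging like pairs gave 1.17 and ended the call (adjusted p = 0.0654). Acsl4, which prefers arachidonic acid, was at 55.9, 53.4 and 54.9 TPM with mannose and 51.3, 49.8 and 45.2 TPM in controls. The groups did not overlap, and the log2 difference was 0.17, short of the threshold (adjusted p = 0.166). Acsl5 averaged 67.6 ± 6.37 and 63.4 ± 4.33 TPM (SD, n = 3 each) in mannose and control libraries, and Acsl1 6.14 ± 0.25 and 7.36 ± 0.70 TPM. Neither difference passed.

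In the carnitine shuttle, Slc25a20 encodes the translocase that exchanges acylcarnitine for carnitine across the inner mitochondrial membrane. It was at 24.6, 22.3 and 24.3 TPM with mannose and 31.8, 31.0 and 32.7 TPM in controls. All mannose libraries lay below all controls, and the log2 difference was -0.41 (SE 0.09, adjusted p = 0.0124). The call was lost without mannose 2 (adjusted p = 0.0572) and with like pairs averaged (adjusted p = 0.106). Cpt1a, the rate-controlling transferase of the outer membrane, was at 40.1, 41.6 and 33.7 TPM with mannose and 32.8, 30.1 and 27.3 TPM in controls. Its groups were apart in the opposite direction to Slc25a20, with a log2 difference of 0.34 short of the threshold (adjusted p = 0.0615). Cpt2, the transferase of the inner membrane, averaged 11.7 ± 1.02 TPM with mannose and 9.45 ± 0.93 TPM in controls, again without overlap and without passing (adjusted p = 0.135). Slc22a5, the plasma membrane carnitine transporter, and Crat, which handles short acyl groups, overlapped between the groups. Their log2 differences were 0.15 and -0.07.

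The acyl-CoA dehydrogenases carry out the opening step of each cycle, with chain lengths that run from very long (Acadvl) and long (Acadl) to medium (Acadm) and short (Acads). Of these, 2 of 4 rose and the other two had positive differences that did not pass. Acadvl was at 66.0, 61.9 and 63.2 TPM with mannose and 43.7, 49.8 and 39.1 TPM in controls. The lowest mannose library stood above the highest control by more than the spread within either group, and the log2 difference was 0.52 (SE 0.11, adjusted p = 0.0098). Acadl was at 92.0, 90.2 and 96.6 TPM with mannose and 76.2, 73.2 and 72.5 TPM in controls. It too did not overlap, with a log2 difference of 0.33 (SE 0.07, adjusted p = 0.0136) that lost its call without control 2 (adjusted p = 0.0586). Neither passed when like pairs were averaged (adjusted p = 0.0654 for Acadvl and 0.109 for Acadl). Acadm averaged 40.0 ± 9.79 TPM with mannose and 32.8 ± 1.63 TPM in controls (SD, n = 3 each). Its spread in the mannose group came from mannose 2, at 50.9 TPM.

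**Figure D3:**
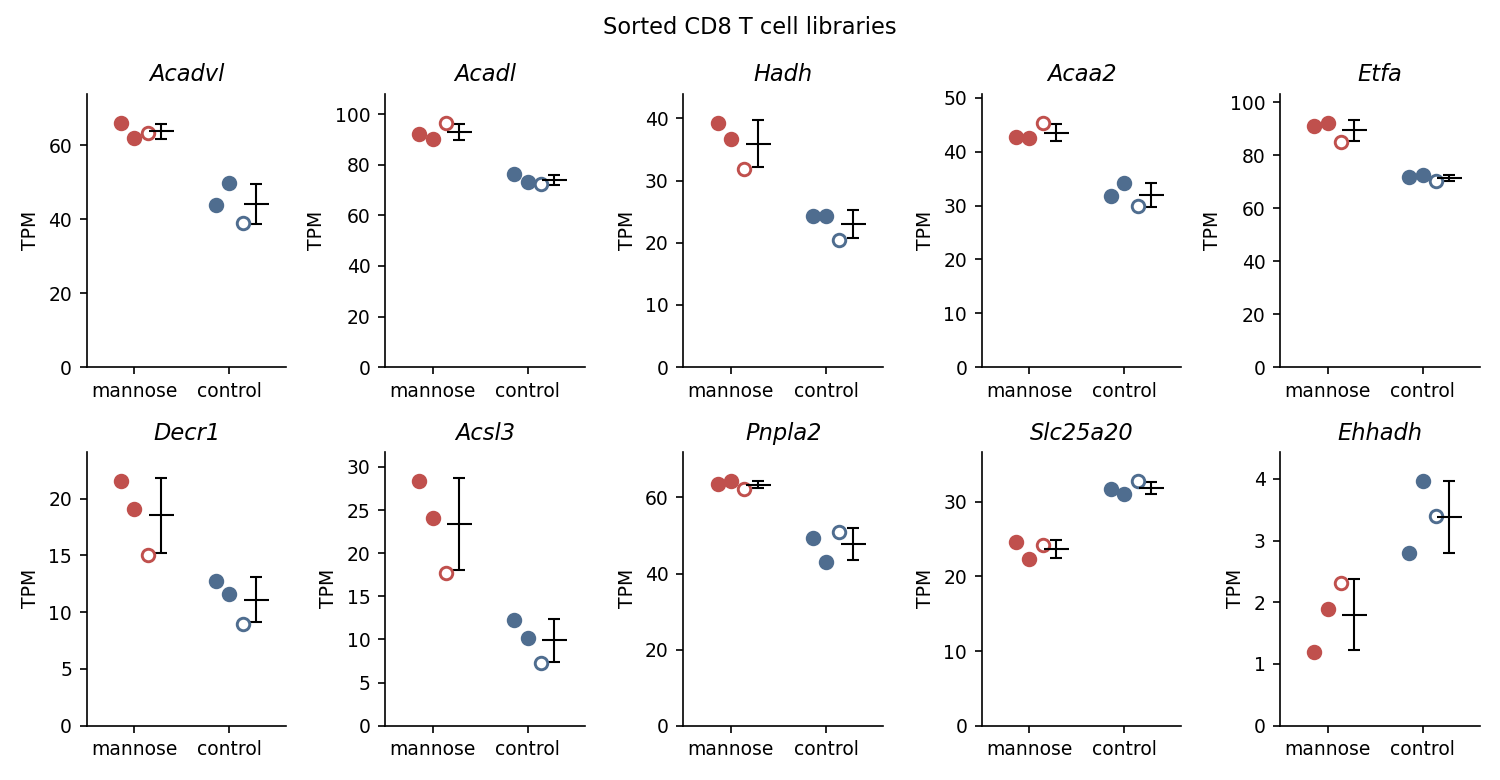
Levels in TPM, on linear axes from 0, of the 8 genes that rose and of Slc25a20 and Ehhadh, which fell, in sorted CD8 T cells, with mannose left of control. Points are libraries, open points those outside a like pair, and bars the mean ± SD (n = 3). No gene shown has overlapping groups; the gap is widest relative to level for Acsl3, at 17.7 to 28.3 TPM with mannose and 7.26 to 12.3 TPM in controls.

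The remaining steps of the mitochondrial cycle split by enzyme. Hadh, a hydroxyacyl-CoA dehydrogenase for medium and short chains, was at 39.3, 36.6 and 31.9 TPM with mannose and 24.4, 24.3 and 20.4 TPM in controls. The groups were well apart, and the log2 difference of 0.62 (SE 0.12, adjusted p = 0.0088) passed in each fit that left out 1 library. Acaa2, the mitochondrial thiolase, was at 42.7, 42.5 and 45.4 TPM with mannose and 31.8, 34.3 and 29.9 TPM in controls. Its groups did not overlap either, with a log2 difference of 0.43 (SE 0.09, adjusted p = 0.0106). Averaging like pairs ended both calls (adjusted p = 0.0779 for Hadh and 0.0817 for Acaa2). Hadha and Hadhb encode the subunits of the trifunctional protein, which runs the later steps for long chains. Hadha averaged 87.6 ± 1.67 TPM with mannose and 86.4 ± 3.45 TPM in controls, and Hadhb 74.5 ± 10.9 and 81.7 ± 6.35 TPM (SD, n = 3 each). Neither passed, with 95% intervals of -0.15 to 0.19 and -0.43 to 0.15 for the log2 difference. Echs1, the short-chain hydratase, averaged 47.4 ± 4.63 and 41.6 ± 3.23 TPM and did not pass (adjusted p = 0.225).

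Enzymes for double bonds and for electron transfer gave 1 call each. Decr1, the dienoyl-CoA reductase that unsaturated chains need, was at 21.5, 19.1 and 15.0 TPM with mannose and 12.8, 11.6 and 8.94 TPM in controls. The groups did not overlap, though mannose 3 lay close to control 1. The log2 difference was 0.69 (SE 0.18, adjusted p = 0.0253), and the call was lost in 4 of the 6 fits that left out 1 library (adjusted p up to 0.0909). The isomerases Eci1 and Eci2 averaged 25.8 ± 1.64 and 70.4 ± 6.83 TPM with mannose, and 19.4 ± 2.92 and 80.3 ± 4.55 TPM in controls. Their log2 differences, 0.41 and -0.19, did not pass. Etfa, a subunit of the flavoprotein that takes electrons from the dehydrogenases, was at 91.0, 92.2 and 84.8 TPM with mannose and 71.8, 72.5 and 70.3 TPM in controls. It was higher in every mannose library, by a log2 difference of 0.32 (SE 0.07, adjusted p = 0.0161), which was lost in 4 of the 6 fits that left out 1 library and under median-ratio scaling (adjusted p = 0.0655). Its partner subunit Etfb, the most abundant member after Fabp5 in CD8 controls, averaged 205 ± 12.1 TPM with mannose and 220 ± 9.4 TPM in controls, with overlap. Etfdh, which passes the electrons on to ubiquinone, averaged 27.3 ± 1.38 and 22.3 ± 0.99 TPM without overlap and did not pass (adjusted p = 0.0544).

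The order of the 6 CD8 libraries was also set beside the summed markers of other cells. The order of the macrophage and monocyte markers was met by 0 of the 31 tested members and by 0.336% of all genes tested. It can be met only where every mannose library lies below every control, as in 7 members and 18.1% of all genes. In that sum mannose 2 and 3 were nearly tied, at 1173 and 1176 TPM. The lack of a match thus carries little weight, and the part of those cells was not tested. Hadh, Decr1 and Acsl3 ranked the 6 CD8 libraries in the same order as the summed carcinoma and epithelial markers, which were at 2673, 2292 and 1748 TPM in mannose 1 to 3 and at 579, 575 and 261 TPM in control 1 to 3. That order can be met only where every mannose library lies above every control, as in 4752 of all genes tested and 14 members. It was shared by 890 of those genes, or 6.23% of all genes tested, and by 3 of those members. The match is thus a description, and the part of those cells in the rises was not tested.

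The 3 peroxisomal enzymes among the members had negative differences, as did 5977 of all 14280 genes tested. Of the 14 other peroxisomal genes given below, 7 were positive and 7 negative. Ehhadh, the bifunctional hydratase and dehydrogenase, was at 1.19, 1.89 and 2.32 TPM with mannose and 2.80, 3.96 and 3.39 TPM in controls. Every mannose library was lower, at low levels, with a log2 difference of -0.66 (SE 0.21, adjusted p = 0.0489) close to the threshold. The call was lost in 5 of the 6 fits that left out 1 library (adjusted p up to 0.154), with a pseudocount of 0.1 (adjusted p = 0.0592) and when low genes were not filtered out (adjusted p = 0.133). Acaa1a, a peroxisomal thiolase, averaged 38.6 ± 2.73 TPM with mannose and 43.7 ± 1.47 TPM in controls. Hsd17b4, the other bifunctional enzyme, averaged 24.2 ± 0.71 and 27.6 ± 1.68 TPM (SD, n = 3 each). Their groups did not overlap, and neither passed (adjusted p = 0.167 and 0.168).

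Of the receptors and coactivators that drive the pathway's genes, Ppard was the one tested in CD8 cells. This lipid-activated nuclear receptor was at 20.7, 21.4 and 22.9 TPM with mannose and 24.1, 25.4 and 29.7 TPM in controls. Its mannose libraries were all lower, by -0.27 on the log2 scale, short of the threshold (adjusted p = 0.104). Ppara, the receptor best known from liver and muscle, was listed at 0 in 5 of the 6 CD8 libraries and at 0.04 TPM in mannose 1. The coactivator Ppargc1a was at 1.58, 1.70 and 0.84 TPM with mannose and 0.60, 0.44 and 0.17 TPM in controls, and its relative Ppargc1b at 0.49 to 0.97 TPM and 0.69 to 0.91 TPM. Both were left untested by the filter of 1 TPM in 3 libraries; where other settings let Ppargc1a in, it was higher without mannose 3 (log2 difference 0.92, adjusted p = 0.0194) and with all 16 libraries in 1 fit (0.75, adjusted p = 0.0217). It did not pass without the filter (adjusted p = 0.0678) or without any 1 control (adjusted p = 0.0712 to 0.134).

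**Figure D4:**
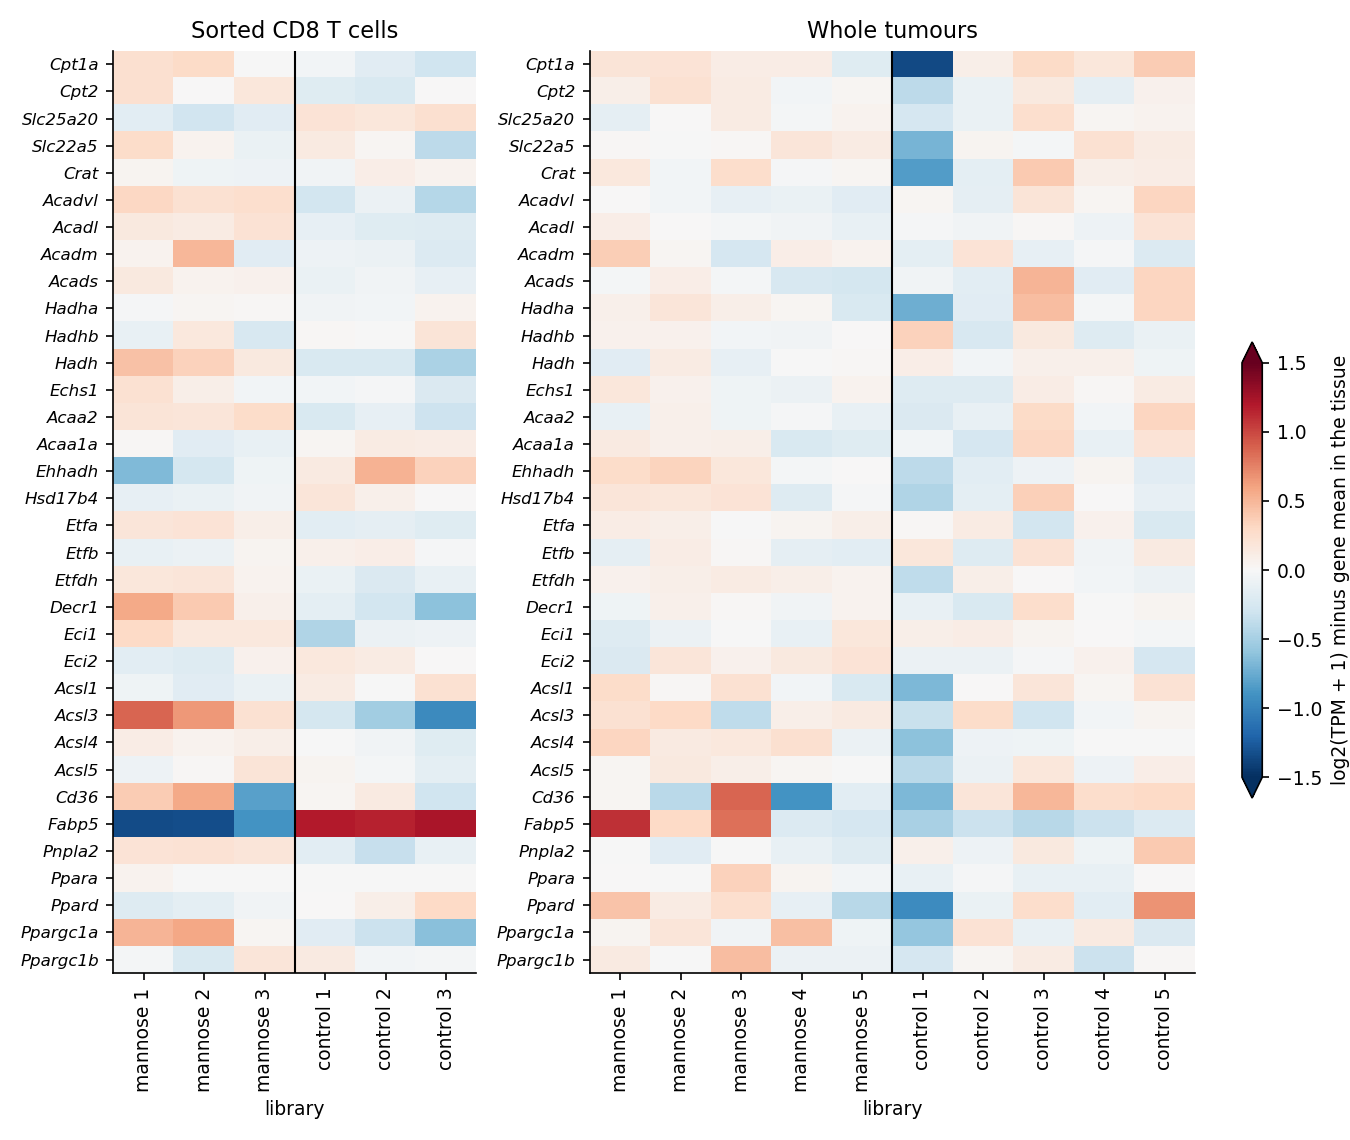
Level of each of the 34 genes in each library, as log2(TPM + 1) minus the mean of that gene over the libraries of the tissue, in sorted CD8 T cells (left) and whole tumours (right), with mannose libraries left of the black line and controls right of it. Fabp5 is the darkest row in CD8 cells, and in tumours control 1 is the lowest library for 16 of the 32 tested genes, Cpt1a among them at 10.6 TPM.

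In whole tumours, which asks what mannose changed in the tissue as a whole, 0 of the 32 tested members passed by limma. Of all 13282 genes tested 0.0% passed, and 6.23% had an unadjusted p under 0.05, which among the members held for Fabp5 alone. No member had groups that did not overlap, against 1.63% of all genes (1.51% with mannose above). The median log2 difference was 0.10 over the members and 0.12 over all genes, with 22 members positive and 10 negative, while 74.4% of all genes were positive. Quantile normalization moved the median of all genes to -0.01 and left 15 of 32 members positive, so the signs of small differences in tumours depend on the scaling. They depend on control 1 as well: without it 14 of 32 members were positive, with a median of -0.03 over the members and 0.02 over all genes.

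Fabp5 in tumours was at 361, 207, 301, 146 and 141 TPM with mannose and 120.0, 134, 126, 135 and 147 TPM in controls. Mannose 1, 2 and 3 stood above every control, while mannose 4 and 5 were within a few TPM of the highest control. The log2 difference was 0.70 (95% interval 0.18 to 1.23, unadjusted p = 0.0129), and it did not pass the adjustment (adjusted p = 0.754). The coefficient of variation of Fabp5 was 41.9% in mannose tumours and 7.67% in controls. Macrophage markers summed to 2642, 2570, 4660, 2249 and 2726 TPM in mannose tumours 1 to 5 and to 1668, 2207, 2934, 2147 and 1994 TPM in control tumours 1 to 5. None of these 12 markers passed in tumours, and their part in the Fabp5 values was not tested.

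Other members stayed close between the tumour groups. Acsl4 was at 30.6, 26.9, 27.4, 28.9 and 22.8 TPM with mannose and 15.5, 23.1, 23.3, 24.2 and 24.3 TPM in controls. Of the mannose tumours 4 lay above all controls and mannose 5 below 4 of them, and the log2 difference was 0.31 (adjusted p = 0.754). Cpt1a was at 32.6, 32.9, 30.9, 30.9 and 24.9 TPM with mannose and 10.6, 30.2, 34.8, 32.2 and 37.2 TPM in controls. Control 1 was far below the rest, and the log2 difference of 0.18 became -0.14 without it. Cd36, at 0.68 to 4.73 TPM with mannose and 0.96 to 3.43 TPM in controls, varied most between libraries of a group among the tested members, with a coefficient of variation of 71.6% in mannose tumours. Of the tested members Etfdh varied least, at 21.1 to 22.2 TPM in mannose tumours (1.84%). The summed members without Fabp5 were 1284 to 1424 TPM in mannose and 1257 to 1514 TPM in control tumours. Ppara, at no more than 0.38 TPM, and Ppargc1b, at no more than 0.89 TPM, were below the filter.

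The difference between the effects of mannose in CD8 cells and in tumours was tested as an interaction over all 16 libraries. By limma, 9 of 32 members (28.1%) differed at an adjusted p under 0.05, with 7 higher and 2 lower in CD8 cells than in tumours, against 18.7% of 15498 genes (11.0% higher and 7.64% lower). Fabp5 gave the largest of these, -3.08 (SE 0.35, adjusted p = 7.56e-05), since it was lower with mannose in the CD8 libraries and had a higher mean with mannose in tumours. Ehhadh differed by -0.96 (SE 0.23, adjusted p = 0.0084), with a log2 difference of -0.66 in CD8 cells and 0.30 in tumours. Its levels were near the filter, at 0.99 to 1.55 TPM in mannose tumours and 0.54 to 1.09 TPM in control tumours. Acsl3 differed by 1.02 (SE 0.29, adjusted p = 0.0219), Acadvl by 0.70 (SE 0.15, adjusted p = 0.0048) and Hadh by 0.68 (SE 0.15, adjusted p = 0.0046). Decr1 (0.67), Pnpla2 (0.59), Acaa2 (0.53) and Eci1 (0.50) passed with smaller differences. The calls of Acaa2 and Eci1 ended in 16 and 13 of the 23 alternative settings, among them the replicate block (adjusted p = 0.101 and 0.122), and that of Eci1 also after quantile normalization (adjusted p = 0.129) and with median-ratio scaling (adjusted p = 0.118). Those of Decr1 and Acsl3 each ended in 4 settings and that of Pnpla2 in 1. In tumours the log2 differences of these 7 were -0.19 to 0.15. After averaging like pairs, Fabp5, Ehhadh, Acadvl and Hadh passed, and 10.6% of all genes did.

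Levels in the control libraries show where the pathway's genes stand without mannose. The tables of the tissues were made separately, so CD8 and tumour levels are set side by side without a test. Across the 34 members the mean levels ranked alike (Spearman rho 0.88 over 34 genes that share their libraries). In CD8 controls 26 members averaged at least 10 TPM, and in tumour controls 27. Fabp5 averaged 590 ± 13.1 TPM in CD8 controls and 132 ± 10.2 TPM in tumour controls (SD, n = 3 and 5), Cd36 10.8 ± 1.78 and 2.51 ± 0.92 TPM, Acsl4 48.8 ± 3.13 and 22.1 ± 3.71 TPM, and Eci2 80.3 ± 4.55 and 37.4 ± 3.04 TPM. These are 4 of the 9 members with every CD8 control above every tumour control, where 37.9% of 15498 genes had that pattern. In 11 members every CD8 control lay below every tumour control, against 24.6% of those genes, and in either direction 20 of 34 members were apart, against 62.5%. Among the 11 were Hadh at 23.0 ± 2.27 and 45.3 ± 2.44 TPM, Acaa2 at 32.0 ± 2.16 and 61.5 ± 10.6 TPM and Eci1 at 19.4 ± 2.92 and 39.7 ± 1.66 TPM. The other 14 overlapped. In the same libraries the macrophage and monocyte markers summed to 4272 to 4565 TPM in CD8 controls and 1668 to 2934 TPM in tumour controls. CD8 control levels are thus those of a mixed fraction, and the part of these markers in the levels was not tested. In CD8 controls Fabp5, Etfb, Hadha, Hadhb and Eci2 stood at the top in that order, and the neighbours Hadha (86.4 ± 3.45 TPM), Hadhb (81.7 ± 6.35 TPM) and Eci2 did not differ beyond their spread.

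**Figure D5:**
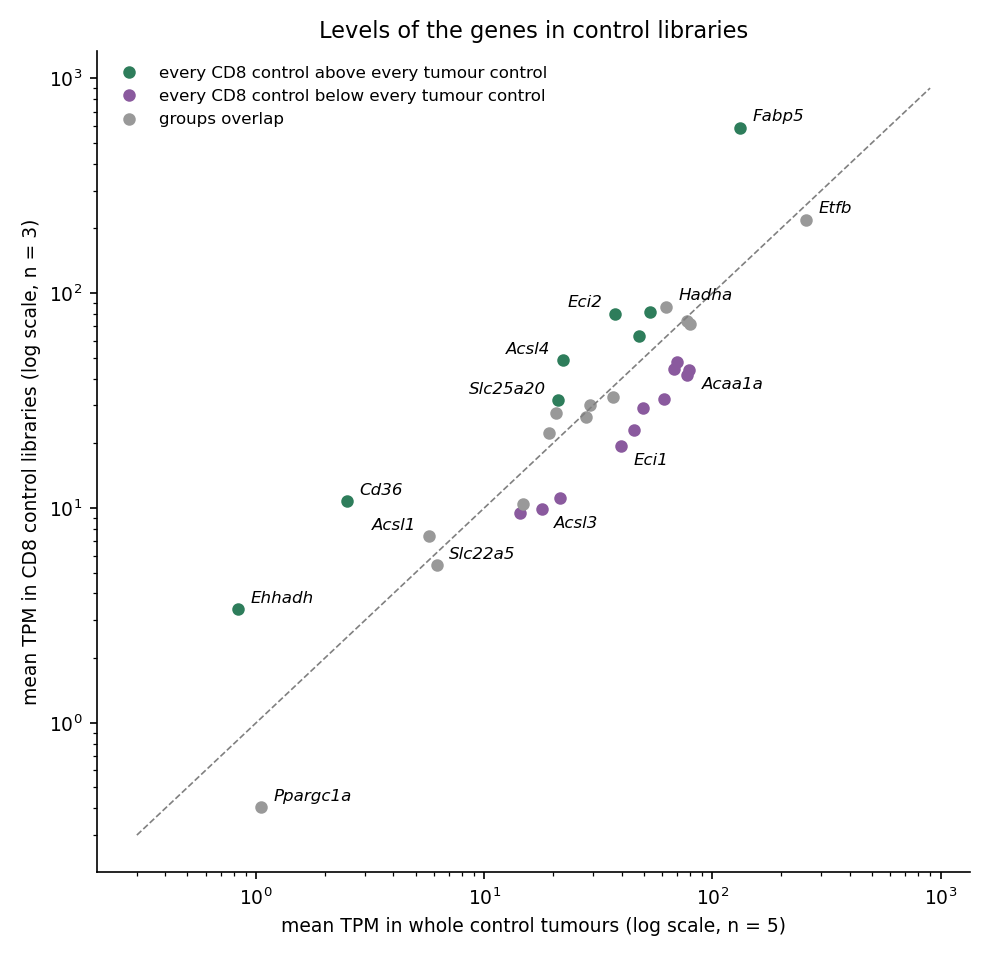
Mean level of each gene in CD8 control libraries (vertical, n = 3) against whole control tumours (horizontal, n = 5), in TPM on log axes, with the line of equal level dashed. Ppara and Ppargc1b, at under 1 TPM in both, are not drawn. Green points are genes with every CD8 control above every tumour control, purple points the reverse and grey points genes whose groups overlap; Fabp5 (590 against 132 TPM) stands highest.

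The wider pathway in CD8 cells was read from 5 further lists, each beside the 34.9% of all genes that passed. Of 14 other mitochondrial oxidation genes, 5 rose and none fell (35.7%). The largest rises were Acsl6, a further acyl-CoA synthetase, at 24.3 ± 3.23 TPM with mannose and 4.65 ± 2.69 TPM in controls (SD, n = 3 each, log2 difference 2.30), and the dehydrogenases Acad11 and Acadsb (0.65 each). Of 14 other peroxisomal genes, 2 rose and 1 fell (21.4%). Among them, Acaa1b, a thiolase, was higher with mannose (log2 difference 0.86) and Scp2, a sterol and lipid carrier with a thiolase form, lower (-0.30).

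Genes of uptake and of lipid droplets went both ways, with 2 of 15 higher and 4 lower (40.0%). Slc27a1, a fatty acid transport protein, averaged 37.6 ± 6.03 TPM with mannose and 16.2 ± 3.32 TPM in controls (log2 difference 1.18), and the droplet coat gene Plin3 rose by 0.69. The largest falls were in G0s2, an inhibitor of the lipase encoded by Pnpla2 (-1.50), in Dgat1, which makes triglycerides (-1.01), and in Hilpda, a droplet protein induced by hypoxia (-0.83). Hilpda averaged 211 ± 4.94 TPM with mannose and 377 ± 41.8 TPM in controls. Of 17 fatty acid synthesis genes, 8 rose and Elovl1, an elongase, fell (-0.40), or 52.9%. The desaturase genes Scd1 (1.96) and Scd2 (0.66) and fatty acid synthase, Fasn (0.78), rose most, Scd1 at 43.8 ± 11.5 TPM with mannose and 10.5 ± 2.82 TPM in controls.

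Among 19 other regulators 5 rose and 2 fell (36.8%). Pparg, the nuclear receptor of fat storage, averaged 34.1 ± 6.63 TPM with mannose and 8.25 ± 3.93 TPM in controls (log2 difference 2.00). Angptl4, a lipase inhibitor and a known target of these receptors, averaged 50.8 ± 6.24 and 14.6 ± 3.60 TPM (1.75), and the corepressor Nrip1 rose by 0.92. The mitochondrial carrier Ucp2 fell by 0.89 and the kinase gene Stk11 by 0.45 on the log2 scale. After averaging like pairs, genes of these lists that still passed included Acsl6, Slc27a1, Hilpda, Fasn, Scd1, Scd2, Pparg and Angptl4. Of these, the 7 that rose each averaged less in CD8 mannose libraries than in control tumours, as in Acsl6, at 24.3 ± 3.23 and 31.0 ± 6.52 TPM, and Pparg, at 34.1 ± 6.63 and 47.7 ± 7.72 TPM (SD, n = 3 and 5). The share of all genes with that pattern was not counted, and the tables of the tissues were made separately. It is therefore a description, and whether the pattern is particular to these genes was not tested. The carcinoma markers that rose in the same CD8 libraries are given above, and their part in these rises was not tested. In tumours none of the genes in these 5 lists passed.

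Promoter sequences were looked up for the members by symbol in RefSeq on the build GRCm38.p6, an older build than the GRCm39 named for the deposited values. A window of 300 bases, with 250 before the transcript start and 50 from it, was found for 28 of the 34 genes and as 29 windows, since Acsl1 had 2 starts. Fabp5, Acaa2, Decr1, Crat, Hsd17b4 and Ppargc1b had no window here, so the counts below do not cover them. The windows are described beside the results because members of this pathway are known targets of PPAR and ERR nuclear receptors and because Hadha and Hadhb are transcribed from opposite strands of one locus. A direct repeat of AGGNCA with 1 base between the copies, the element of PPAR with its partner RXR, was searched on both strands. It was in 0 of 29 windows and in 0.381% of all 32851 promoter windows. The ERR element TNAAGGTCA was in 0 of 29 and in 1.28% of all. The GC box GGGCGG, searched on both strands after these gave no match, was in 23 of 29 windows (79.3%) and in 35.7% of all. It overlaps neither of the other motifs here, as those have no match. The share among expressed genes, or among windows of like GC content, was not counted. Whether the gap is particular to this pathway was therefore not tested.

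The Hadha and Hadhb starts lie 273 bases apart on opposite strands, so their windows share 228 bases. The Hadhb window, at chr5:30155003-30155302 on the plus strand, is shown to let the shared part be seen. Capitals mark the bases that also lie in the Hadha window.
Hadhb: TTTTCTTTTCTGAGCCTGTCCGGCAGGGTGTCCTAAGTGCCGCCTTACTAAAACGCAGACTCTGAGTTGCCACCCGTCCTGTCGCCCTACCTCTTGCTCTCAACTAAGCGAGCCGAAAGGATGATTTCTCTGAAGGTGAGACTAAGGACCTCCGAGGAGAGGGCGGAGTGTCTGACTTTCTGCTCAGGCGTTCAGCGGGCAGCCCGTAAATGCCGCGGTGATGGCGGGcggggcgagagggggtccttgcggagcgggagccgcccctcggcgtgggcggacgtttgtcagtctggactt
In the expression data these neighbours had similar levels in CD8 controls (Hadha 86.4 ± 3.45 TPM and Hadhb 81.7 ± 6.35 TPM), and neither passed in any of the 3 comparisons. They did not move together in every library. In tumour control 1 Hadha was at 36.4 TPM, the lowest of the tumour libraries, and Hadhb at 67.2 TPM, the highest.

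Acsl3, the member with the largest rise in CD8 cells, and Slc25a20, a fallen member, are shown as examples of windows with GC boxes among genes that moved in opposite directions. Capitals mark the GC boxes, on either strand, of which Acsl3 has 5 and Slc25a20 has 3. The Acsl3 window is chr1:78657575-78657874 and the Slc25a20 window chr9:108661886-108662185, both on the plus strand.
Acsl3: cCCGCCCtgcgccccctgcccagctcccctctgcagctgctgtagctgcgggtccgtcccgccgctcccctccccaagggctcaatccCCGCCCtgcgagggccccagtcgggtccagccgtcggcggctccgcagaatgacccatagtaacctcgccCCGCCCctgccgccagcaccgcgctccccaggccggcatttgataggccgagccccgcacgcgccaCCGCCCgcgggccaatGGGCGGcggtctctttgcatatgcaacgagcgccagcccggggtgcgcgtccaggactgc
Slc25a20: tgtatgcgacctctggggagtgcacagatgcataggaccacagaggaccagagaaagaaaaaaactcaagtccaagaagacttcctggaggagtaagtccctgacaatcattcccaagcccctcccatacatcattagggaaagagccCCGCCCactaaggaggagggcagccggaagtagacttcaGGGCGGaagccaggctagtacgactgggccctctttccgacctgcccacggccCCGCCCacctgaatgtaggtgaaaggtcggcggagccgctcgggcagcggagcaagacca
GC boxes were thus present in windows of genes that rose and of genes that fell, and a match is a description of the letters only.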

How the data were processed

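Bulk RNA sequencing of 16 libraries was deposited by the authors as 1 table per library of gene symbols and TPM. The build GRCm39 and the tools RSEM, HISAT and fastp were used, per the submitters' processing notes, which give no versions. Depth is unknown, so no counting error can be given. Groups came from the sample labels. Entries that share a symbol were summed. Differences were tested with limma 3.58.1 (R 4.3.3, variance trend) on log2(TPM + 1), so changes of low genes are understated, over genes with at least 1 TPM in 3 (CD8) or 5 (tumour) libraries. Each tissue was fitted on its own, and the interaction over 52916 shared symbols. P-values were adjusted by Benjamini-Hochberg over all genes tested, with a threshold of 0.05. The fits were tested on simulated data with each library drawn independently, which does not cover the like pairs of CD8 libraries. All 34 members were eligible to be named; of each pathway list, up to 3 rises and 3 falls past the threshold were. One gene that the rule would name is not reported here. The members and lists were chosen with earlier results of these data known. Alternatives changed the pseudocount, filter, scaling, weights, replicate block, joint fit and libraries; like pairs in the interaction and the GC box were added after the data were seen. Figures used matplotlib 3.10.9 in Python 3.11.15.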

Additional observations from a re-analysis of the deposited data

Results flagged for a closer look

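Among the 64 groups of 5 tumour libraries checked for the members, 3 held a library far from the other 4, where chance gives about 1 in 20 groups. The 3 are thus near the share that chance gives, and they are listed as a description. Cpt1a, the transferase that controls entry to the mitochondrion, was at 24.9 TPM in mannose tumour 5, against 30.9 to 32.9 TPM in the other mannose tumours. It was at 10.6 TPM in control tumour 1, against 30.2 to 37.2 TPM in the other controls. Acsl4 was at 15.5 TPM in control tumour 1, against 23.1 to 24.3 TPM in the other controls.

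The effect of mannose in CD8 cells minus that in tumours passed the test of the difference itself (limma, adjusted p under 0.05) for 9 members. On the log2 scale it was -3.08 for Fabp5 and -0.96 for Ehhadh. It was 1.02 for Acsl3, 0.70 for Acadvl, 0.68 for Hadh, 0.67 for Decr1, 0.59 for Pnpla2, 0.53 for Acaa2 and 0.50 for Eci1. Of these, Fabp5, Ehhadh, Acadvl and Hadh passed in each of the 23 alternative settings. Ehhadh is low in both tissues, and its call in the CD8 comparison was lost in 8 of 14 alternative settings.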

How the results depend on the processing

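The 11 members called in CD8 cells became 20 with array weights (12 higher, 8 lower), 6 to 15 with 1 library left out (4 to 11 higher, 1 to 4 lower) and 1 with like pairs averaged (0 higher, 1 lower). The fallen members were 6 after quantile normalization and 5 with median-ratio scaling. Of all genes, 8631 passed with array weights, 2803 to 6119 with 1 library left out and 1652 with like pairs averaged, against 4980. In tumours 0 members passed in all 18 alternatives, and 0 to 1 of all genes with 1 library left out. The 9 members of the interaction became 16 with array weights (12 higher, 4 lower), 5 to 12 with 1 library left out (3 to 9 higher, 2 to 3 lower) and 4 with like pairs averaged (2 higher). Of all genes in the interaction 6323, 1884 to 4010 and 1609 passed, against 2896. The cause of these moves was not tested. Signs turned in CD8 cells for Slc22a5 (-0.085 after quantile normalization, -0.008 to 0.257 with 1 library left out), Hadha (-0.067 with median-ratio scaling, -0.0 to 0.052), Hadhb (0.097 with array weights), Etfb (0.076 after quantile normalization) and Cd36 (-0.113 after quantile normalization, -0.063 with like pairs averaged, -0.174 to 0.516 with 1 library left out). In tumours 7 of the 32 tested members turned sign after quantile normalization, 6 with median-ratio scaling, 7 with array weights, and 8 without control 1, alone or with mannose 3. Among the 14 of these members called in another comparison or named for a library far from the rest, those that turned were Slc25a20 (-0.105 after quantile normalization, -0.1 with median-ratio scaling, -0.021 with array weights, -0.083 without control 1 and mannose 3, -0.054 to 0.072 with 1 library left out), Decr1 (-0.095, -0.094, and -0.012 without those 2 libraries; -0.041 to 0.082), Acadl (0.037 with array weights, -0.058 to 0.018) and Cpt1a (-0.032 with array weights, -0.147 without those 2 libraries, -0.141 to 0.29). Unknown depth and 2 or 3 CD8 libraries a group limit all calls.

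Replicate numbers did not pair the libraries. Deviations of same-numbered libraries correlated at 0.06 to 0.16 in CD8 cells, where 2 of 3 were best with their own number, and at -0.51 to 0.28 in tumours, where 1 of 5 was. With the replicate number as a block, 12 members were called in CD8 cells (9 higher, 3 lower, Cpt1a added), 0 in tumours and 7 in the interaction (5 higher, 2 lower), with 4838, 0 and 2493 of all genes.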
